A study of Mus musculus with 18 samples.

Results

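The genes described are 30 mouse genes of DNA replication and S phase, taken by symbol from a deposited table of 35727 gene IDs, and all 30 were found and tested. They act in licensing of origins (Orc1, Cdc6, Cdt1), as subunits of the MCM helicase (Mcm2 to Mcm7), in helicase activation (Mcm10, Cdc45, Gins1, Gins2, Gins3), in DNA synthesis and ligation (Pola1, Prim1, Pcna, Rfc3, Rfc4, Fen1, Lig1), in deoxynucleotide supply (Rrm1, Rrm2, Tyms), in G1/S control (Ccne1, Ccne2, E2f1) and in chromatin assembly and maintenance (Chaf1a, Chaf1b, Uhrf1). RNA was measured in 18 libraries of cultured mouse cells in 6 groups of 3, all at day 7 in EGM2, an endothelial growth medium. The groups were lung iECs, lung endothelial cells (ECs), lung fibroblasts, heart iECs, heart ECs and heart fibroblasts. The titles call the fibroblasts controls. The name iEC is commonly short for induced endothelial cell, and the titles of the iEC libraries read SEG, a term the labels do not explain. The labels used here name no strain, age, sex, vector or passage, and do not say whether the 3 libraries of a group came from separate animals or cultures, so the p-values measure only the spread between these libraries. The study asked whether iECs take on the endothelial identity of their organ.

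A cell enters S phase after origins of replication have been licensed and the cyclin-dependent kinases of G1/S have become active. ORC, Cdc6 and Cdt1 load the ring of MCM subunits onto origins in G1. Cdc45 and the GINS proteins then turn the ring into a moving helicase, on which polymerase alpha with primase starts each strand, the clamp Pcna and its loader RFC hold the replicative polymerases, and Fen1 and Lig1 finish the lagging strand. E2F factors, held back by the Rb family, are known to drive many of these genes, so their RNA is low in resting fibroblasts and high in cycling cells.

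Promoters of 4 members are shown because they share the letters to which E2F factors are known to bind while their RNA followed different patterns. Mcm5 and Mcm6 both carry an overlapping pair of matches but differed widely in their change in heart cells, Cdc6 had the largest changes between groups, and Pola1 was the member that stood higher in heart iECs than in heart ECs. Each stretch holds 90 bases upstream of the RefSeq start on GRCm38.p6, written in the direction of the gene, with the matches in capitals. They lie at chr8:75109341-75109430 on the plus strand for Mcm5, chr1:128359741-128359830 on the minus strand for Mcm6, chr11:98907998-98908087 on the plus strand for Cdc6 and chrX:93632219-93632308 on the minus strand for Pola1. In the GENCODE annotation (M21, the same build) these are the protein-coding genes ENSMUSG00000005410 (Mcm5), ENSMUSG00000026355 (Mcm6), ENSMUSG00000017499 (Cdc6) and ENSMUSG00000006678 (Pola1). No stretch overlaps an exon there: those of Mcm5, Mcm6 and Pola1 lie upstream of the gene, and that of Cdc6 lies within the span of the gene, between exons.
Mcm5: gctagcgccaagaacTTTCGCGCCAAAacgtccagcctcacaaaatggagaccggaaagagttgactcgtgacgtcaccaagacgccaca
Mcm6: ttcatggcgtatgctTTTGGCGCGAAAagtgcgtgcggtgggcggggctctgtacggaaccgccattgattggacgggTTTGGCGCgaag
Cdc6: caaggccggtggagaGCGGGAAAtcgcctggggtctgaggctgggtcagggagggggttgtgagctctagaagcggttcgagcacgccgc
Pola1: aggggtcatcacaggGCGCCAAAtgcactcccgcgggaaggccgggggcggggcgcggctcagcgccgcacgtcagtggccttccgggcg
In Mcm5 and Mcm6 the matches on the 2 strands share their central bases, and Mcm6 has a further match nearer its start.

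RefSeq promoters were held for 26 of the 30 members. The E2F letters searched were TTTCCCGC, TTTCGCGC, TTTGGCGC and TTTGGCGG on both strands of the 250 bases before the start. They were present for 10 of the 26 members (38.5%), against 2.28% of 26742 genes, 7 of 41 other replication genes and 1 of 18 mitosis genes. The 10 were Orc1, Cdc6, Mcm5, Mcm6, Mcm7, Gins3, Pola1, Rfc3, Chaf1a and Uhrf1. CCAAT stood in 17 of the 26 (65.4%), against 37.5% of all genes, and the CHR letters TTTGAA or TTCGAA, known from mitotic promoters, in 6 (23.1%), against 19.4%. In heart iECs over heart fibroblasts the members with an E2F match had log2 changes from -0.03 to 2.31 with a median of 1.02, and those without had changes from -0.41 to 1.79 with a median of 0.49. The ranges overlap widely. In the other comparisons the medians were closer: 0.30 with and 0.03 without a match in lung iECs over lung fibroblasts, 1.45 and 1.42 in heart ECs over heart fibroblasts, 0.47 and 0.39 in lung ECs over lung fibroblasts, -0.91 and -0.77 in heart iECs over heart ECs, and -0.31 and -0.29 in lung iECs over lung ECs. Lung over heart they were 0.93 and 0.83 in iECs, 0.31 and 0.22 in ECs and 1.20 and 0.97 in fibroblasts. A match describes letters and is not a measured site. For some members the bases before the RefSeq start overlap a GENCODE exon, as for E2f1. A missing match thus describes only the bases searched.

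Library totals ran from 17747632 to 23775372 estimated counts. Levels below are CPM, estimated counts relative to library size, scaled by edgeR's TMM factors, and fold changes are edgeR log2 changes with their SE and a Benjamini-Hochberg adjusted p. Summed over 10 endothelial markers, the libraries reached 1971 to 2297 CPM in lung iECs, 2789 to 2872 in lung ECs, 19.1 to 25.5 in lung fibroblasts, 2199 to 2353 in heart iECs, 1761 to 1940 in heart ECs and 256 to 283 in heart fibroblasts. Erg alone held 1034 CPM of that sum in lung iECs and 1024 CPM in heart iECs. Against fibroblasts, 9 of the 10 were called higher and 0 lower in lung iECs, and 8 higher and 1 lower in heart iECs. By mean, only Erg and Kdr were higher in lung iECs than in lung ECs. The others were lower, such as the junction gene Cldn5, at 0.42 CPM in lung iECs against 54.8 CPM in lung ECs. In heart iECs Erg, Kdr, Cdh5 and Tie1 averaged above heart ECs and the others below. Of 10 fibroblast markers, all detected in every group, the sum was 18521 to 23922 CPM in lung iECs, 17513 to 18551 in lung ECs, 44508 to 59122 in lung fibroblasts, 29433 to 29881 in heart iECs, 27767 to 28299 in heart ECs and 36341 to 38001 in heart fibroblasts. In heart ECs 7 of the 10 were called lower than in heart fibroblasts (median -0.94). Col3a1 averaged 4026 CPM in heart ECs and 8855 CPM in heart fibroblasts, and Col1a1 8286 CPM in heart ECs and 8517 CPM in heart fibroblasts. Macrophage markers, 10 of 10 detected in every group, summed to 2499 to 3969 CPM in lung iECs, 7825 to 10171 in lung ECs and 1054 to 1407 in lung fibroblasts, and to 304 to 356 in heart iECs, 317 to 417 in heart ECs and 216 to 251 in heart fibroblasts. Of 8 mesothelial markers the sum was 44.5 to 62.1 CPM in lung iECs, 279 to 407 in lung ECs, 293 to 314 in lung fibroblasts, 109 to 122 in heart iECs, 422 to 613 in heart ECs and 58.0 to 78.7 in heart fibroblasts. Most of the heart iEC sum was Gpm6a, which averaged 109.7 CPM there, against 6.94 CPM in heart fibroblasts. Of the 8 mesothelial markers, heart iECs had 2 higher and 5 lower than heart fibroblasts (median -3.49). Of 8 epithelial markers it was 3.75 to 4.86 CPM in lung iECs (Sftpc at 0), 255 to 295 in lung ECs, 12.7 to 19.8 in lung fibroblasts, 0.0888 to 0.302 in heart iECs (Epcam, Cldn7 and Sftpc at 0), 12.05 to 22.9 in heart ECs (Epcam, Cldn4, Sftpc and Elf3 at 0) and 1.16 to 1.75 in heart fibroblasts (Epcam, Cldn7, Sftpc and Elf3 at 0). The part of such cells in the results below was not tested.

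For 9 members an exon overlaps an exon of a gene on the other strand: Orc1, Mcm7, Cdc45, Gins2, Rfc4, Fen1, Lig1, Ccne2 and Chaf1a. Whether the counting used strand is not given in the sources used here. Reads of the overlapping bases may thus have been counted for either gene. The overlap takes up most of the exon sequence for Fen1 with the antisense gene Gm10143, for Gins2 with Gse1 and for Chaf1a with Ubxn6.

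Replication genes were lowest in heart fibroblasts and highest, for most members, in lung ECs. Summed over the 30 members, the level was 649.8 ± 36.4 CPM in lung iECs, 769 ± 58.2 in lung ECs and 597 ± 67.2 in lung fibroblasts, and 435 ± 7.40 in heart iECs, 726 ± 34.6 in heart ECs and 304 ± 5.75 in heart fibroblasts (SD, n = 3). By group mean, 21 members were highest in lung ECs and 26 were lowest in heart fibroblasts. The exceptions at the low end were Chaf1b, E2f1, Gins3 and Rfc4, lowest in heart iECs. The spread over groups ranged widely, from 18.9-fold for Cdc6 and 15.5-fold for Mcm5 between the highest and lowest mean to 1.38-fold for E2f1. In bulk RNA, fewer cycling cells and less replication RNA per cell cannot be told apart.

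**Figure D1:**
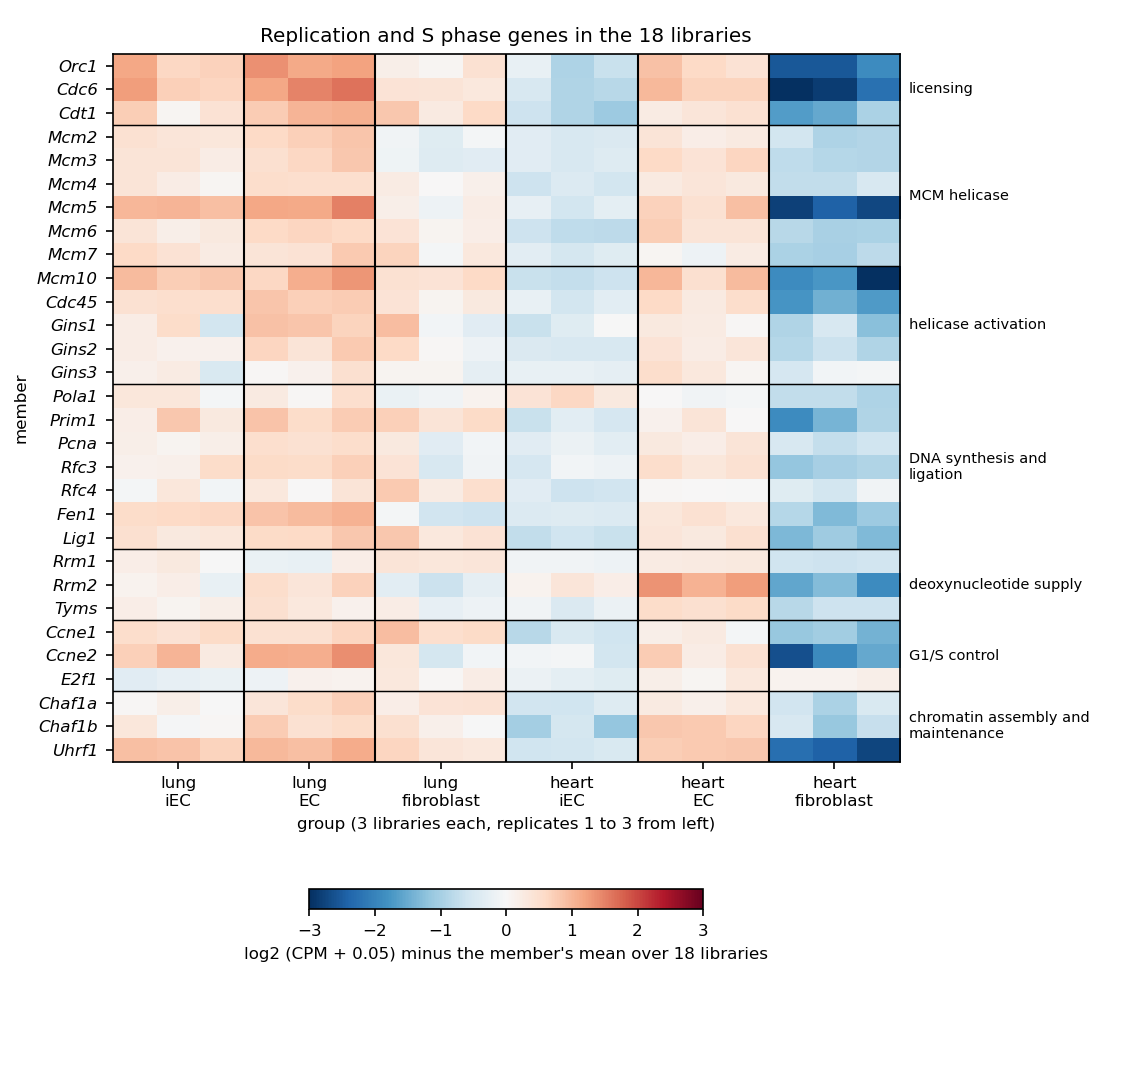
Level of each of the 30 members (rows, grouped by role) in each of the 18 libraries (columns, 3 per group), as log2 of CPM plus 0.05 minus the member's mean over the libraries. The heart fibroblast columns are the darkest blue, most of all for Cdc6, Mcm5, Mcm10, Orc1, Ccne2 and Uhrf1, while E2f1 stays pale in every group.

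Heart iECs carried more replication RNA than heart fibroblasts. Of the 30 members 20 were called higher, 1 lower and 9 neither, where 26.0% of the 14864 genes tested were called higher and 24.6% called lower. Their median change was 0.52 on the log2 scale, against 0.02 over all genes tested. Every role had a higher member, with 2 of 3 licensing genes, 4 of 6 MCM subunits, 2 of 5 helicase activation genes, 6 of 7 synthesis and ligation genes, all 3 deoxynucleotide genes, both cyclins E and 1 of 3 chromatin genes. Left-out libraries changed 3 of these calls, those of Mcm7, Mcm2 and Pcna. Scaling by library totals alone, without TMM, called 24 members higher and 0 lower, and of all called genes 5772 of 8323 were then higher, against 3868 of 7530 under TMM.

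Mcm5 and Cdc6 had the largest changes. Mcm5, a subunit of the helicase ring, stood at 10.03, 8.09 and 9.63 CPM in heart iECs, against 1.67, 2.16 and 1.75 CPM in heart fibroblasts, so the groups did not overlap. It was higher by 2.31 ± 0.172 (adjusted p = 2.64e-09). Cdc6, the loader that works with ORC, stood at 2.40, 1.75 and 1.86 CPM in heart iECs, against 0.365, 0.421 and 0.666 CPM in heart fibroblasts, again without overlap, and was higher by 2.05 ± 0.281 (adjusted p = 6.78e-06). These heart fibroblast levels rest on 26 counts in all for Cdc6 and 14 for Orc1, which was higher by 1.88 ± 0.349. Cdt1, the third licensing gene, had a change of 0.50 ± 0.228 that missed the threshold (adjusted p = 0.079).

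Helicase activation was split. Mcm10, which links the helicase to polymerase alpha, was higher by 1.57 ± 0.318, and Cdc45 by 1.29 ± 0.158. The GINS genes had changes of 0.53 ± 0.368 for Gins1, 0.32 ± 0.155 for Gins2 and -0.03 ± 0.227 for Gins3, none called. Gins1 is scarce, at 0.98 CPM in heart fibroblasts, and its error is the widest of the members in this comparison. Pola1, the catalytic subunit of polymerase alpha, rose by 1.25 ± 0.142 and its primase partner Prim1 by 0.88 ± 0.244. Pcna, the sliding clamp, stood at 48.5, 54.0 and 49.4 CPM in heart iECs, against 43.9, 37.5 and 40.5 CPM in heart fibroblasts. That was the smallest called change, 0.32 ± 0.114, and its call was lost without any of 3 libraries (adjusted p up to 0.108).

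Rrm2, the subunit of ribonucleotide reductase made in S phase, stood at 39.8, 47.3 and 42.6 CPM in heart iECs, against 12.6, 15.01 and 9.92 CPM in heart fibroblasts, and was higher by 1.79 ± 0.153. Its partner Rrm1 was higher by only 0.48 ± 0.0946 and thymidylate synthase, Tyms, by 0.46 ± 0.134. Of the G1/S genes, Ccne2 was higher by 1.78 ± 0.295 and Ccne1 by 0.58 ± 0.151. E2f1, the E2F factor in the list, went the other way: it stood at 24.5, 22.5 and 21.5 CPM in heart iECs, against 29.9, 29.7 and 31.1 CPM in heart fibroblasts, and fell by 0.41 ± 0.0956 (adjusted p = 0.00165). Scaled by library totals alone, E2f1 was not called, while Cdt1, Gins2, Mcm4 and Mcm6 were called higher. Uhrf1, which brings the maintenance methylase to new DNA, rose by 1.94 ± 0.132, whereas the histone chaperone genes Chaf1a and Chaf1b had changes of 0.13 ± 0.129 and -0.12 ± 0.200.

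Heart ECs stood further above heart fibroblasts. Of the members 27 were called higher and 0 lower, where 24.2% of all genes tested were higher and 23.3% lower, with a member median of 1.41 against 0.00 over all genes. In edgeR 0 members were lower at an unadjusted p under 0.05, and DESeq2 also called 0. E2f1, Gins3 and Rfc4 were not called, with changes of 0.06 ± 0.0951, 0.53 ± 0.224 and 0.35 ± 0.187. Cdc6 stood at 6.59, 5.33 and 5.33 CPM in heart ECs, over the heart fibroblast values given above, and was higher by 3.58 ± 0.264 (adjusted p = 5.10e-09). Mcm5 followed with 3.36 ± 0.169, Uhrf1 with 3.26 ± 0.130, Orc1 with 3.15 ± 0.331 and Mcm10 with 3.09 ± 0.302. The smallest called change was that of Pola1, which stood at 13.3, 12.1 and 12.7 CPM in heart ECs, against 7.83, 7.79 and 6.90 CPM in heart fibroblasts, and was higher by 0.76 ± 0.144 (adjusted p = 0.000308). All 6 MCM subunits, all 3 licensing genes and all 3 chromatin genes were called in this direction. The call of Gins1 was lost without any of 4 libraries (adjusted p up to 0.0875). Under library totals alone 28 members were higher and 4630 of 7062 called genes, against 3590 of 7051 under TMM.

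Heart iECs stood below heart ECs in nearly all members. Of the 30, 28 were called lower and 1 higher, where 24.4% of all genes tested were lower and 24.5% higher, and the member median was -0.77 against 0.01. Chaf1b, a subunit of the chaperone that puts histones on new DNA, stood at 3.59, 5.09 and 3.24 CPM in heart iECs, against 12.8, 12.7 and 11.6 CPM in heart ECs, and fell by 1.63 ± 0.190 (adjusted p = 1.12e-06). Cdc6 fell by 1.52 ± 0.211, Mcm10 by 1.51 ± 0.257 and Uhrf1 by 1.31 ± 0.111. The smallest called fall was that of Rrm1, at 84.4, 85.0 and 81.2 CPM in heart iECs, against 107, 109.5 and 112 CPM in heart ECs, by 0.39 ± 0.0938 (adjusted p = 0.00204). E2f1 fell by 0.47 ± 0.0953. The calls of Ccne2, Gins3, Mcm7, Prim1 and Rfc4 were each lost without some library (adjusted p up to 0.177).

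Pola1 was the exception. It stood at 17.3, 20.1 and 16.1 CPM in heart iECs, against 13.3, 12.1 and 12.7 CPM in heart ECs, without overlap, and was higher by 0.49 ± 0.136 (adjusted p = 0.00598). The call held with each library left out. Its primase partner Prim1 fell by 0.69 ± 0.221 in the same comparison. Heart iECs had the highest mean of Pola1 among the 6 groups, 17.8 ± 2.05 CPM (SD). In the heart, 25 of the 30 members had their iEC mean between the fibroblast and the EC mean in rising order, an order found for 16.04% of the genes tested. In the lung 19 members had this order, against 23.4% of the genes tested. The mesothelial sum was lower in heart iECs than in heart ECs, as most members were, with 6 of 8 markers called lower and 1 higher, while the macrophage sums of these groups overlapped. Against heart fibroblasts, heart iECs had lower fibroblast sums, 2 mesothelial markers called higher and 5 lower, and 3 macrophage markers called higher and 2 lower. The higher macrophage sum of heart iECs was mostly Lyz2, which averaged 259 CPM there, against 163 CPM in heart fibroblasts. The part of these cells in the differences was not tested.

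**Figure D2:**
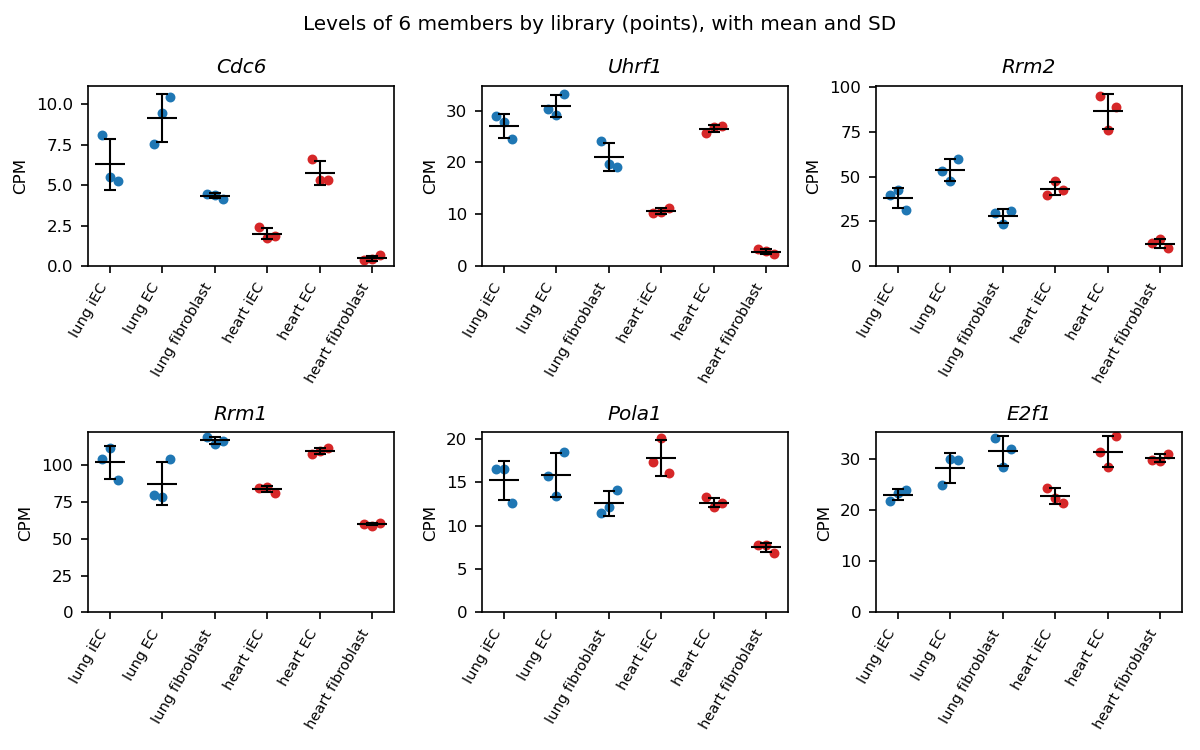
CPM of 6 members by library (points), with the mean (long line) and SD (error bar) of each group of 3, lung in blue and heart in red. Cdc6 and Uhrf1 fall near the baseline in heart fibroblasts, Rrm2 is highest in heart ECs, Pola1 is highest in heart iECs, and E2f1 lies lower in both kinds of iECs than in the other groups.

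In the lung the median differences of the members were smaller. Against lung fibroblasts, lung iECs had 8 members called higher and 2 lower, where 25.9% of all genes tested were higher and 24.7% lower, and the member median was 0.13 against 0.00. Both shares of the members lie near or under those of all genes. Scaled by library totals alone, the split was 15 higher and 1 lower, with the median over all genes tested at 0.16 and 5296 of 7846 called genes higher, against 3850 of 7518 under TMM. Without lung fibroblast replicate 2 the count of higher members was 5, and without lung fibroblast replicate 3, lung iEC replicate 1 or lung iEC replicate 3 the count of lower members was 1.

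Fen1, the nuclease that trims Okazaki fragments and a gene with a long antisense overlap, had the largest change. It stood at 18.2, 19.04 and 19.4 CPM in lung iECs, against 12.03, 8.38 and 8.12 CPM in lung fibroblasts, and was higher by 0.99 ± 0.135 (adjusted p = 6.17e-06). The helicase subunits Mcm5, Mcm3 and Mcm2 were higher by 0.88 ± 0.137, 0.63 ± 0.0977 and 0.55 ± 0.103. Uhrf1 stood at 28.9, 27.8 and 24.5 CPM in lung iECs, against 24.2, 19.7 and 19.1 CPM in lung fibroblasts, without overlap, and had the smallest called rise, 0.37 ± 0.107 (adjusted p = 0.00799). The calls of Ccne2, Cdc6 and Rrm2 did not hold with each library left out (adjusted p up to 0.0861, 0.235 and 0.0911).

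E2f1 stood at 21.9, 23.4 and 24.03 CPM in lung iECs, against 34.2, 28.5 and 32.0 CPM in lung fibroblasts, without overlap. It fell by 0.45 ± 0.0954 (adjusted p = 0.000671), close to its fall in heart iECs. Rfc4, a subunit of the clamp loader, stood at 4.46, 5.84 and 4.34 CPM in lung iECs, against 8.02, 5.51 and 6.59 CPM in lung fibroblasts, and these values overlap. Its fall of 0.45 ± 0.178 lost its call without any of 4 libraries (adjusted p up to 0.187) and under library totals alone. The 8 members called higher in lung iECs, Ccne2, Cdc6, Fen1, Mcm2, Mcm3, Mcm5, Rrm2 and Uhrf1, were also called higher in heart iECs, where 20 of 30 were. Macrophage markers were higher in lung iECs than in lung fibroblasts by the ranges given above, and their part in these differences was not tested.

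Lung ECs had 17 members called higher than in lung fibroblasts and 1 lower, where 29.3% of all genes tested were higher and 28.7% lower, with a median of 0.41 against 0.00. Fen1, at 22.9, 24.2 and 25.8 CPM in lung ECs over the lung fibroblast values above, was higher by 1.36 ± 0.134 (adjusted p = 8.69e-08). Ccne2 followed with 1.27 ± 0.245, Mcm5 with 1.18 ± 0.136, Cdc6 with 1.08 ± 0.197 and Orc1 with 1.02 ± 0.253. Pola1 stood at 15.8, 13.4 and 18.5 CPM in lung ECs, against 11.5, 12.1 and 14.2 CPM in lung fibroblasts, and its change of 0.33 ± 0.137 lost its call without any of 4 libraries (adjusted p up to 0.224), as did those of Gins2, Rfc3 and Tyms without some library (adjusted p up to 0.123). Under library totals alone 21 members were higher and 5333 of 8764 called genes, against 4358 of 8629 under TMM.

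Rrm1 was lower in lung ECs, in contrast to Rrm2. It stood at 79.6, 78.2 and 104 CPM in lung ECs, against 119, 114 and 116 CPM in lung fibroblasts, without overlap, and fell by 0.42 ± 0.0937 (adjusted p = 0.000904). Rrm2 stood at 53.3, 47.7 and 59.6 CPM in lung ECs, against 29.8, 23.6 and 30.5 CPM in lung fibroblasts, and rose by 0.94 ± 0.145. Lung ECs also carried the highest sums of macrophage and epithelial markers of the series, whose part in these values was not tested.

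Lung iECs had 0 members called higher than in lung ECs and 13 lower, where 22.2% of all genes tested were higher and 23.0% lower, and the median was -0.31 against -0.01. At an unadjusted p under 0.05 edgeR had 1 higher, Rrm1 with a change of 0.22 ± 0.0936, and DESeq2 called 0 higher. Most of these calls were marginal: without lung EC replicate 3 there were 5 lower members, without lung iEC replicate 2 there were 6, and without lung iEC replicate 3 there were 8. Calls of Chaf1a and Rrm2 held with each library left out. Most of the exon sequence of Chaf1a overlaps Ubxn6 on the other strand, as given above. Chaf1a stood at 14.6, 15.9 and 13.99 CPM in lung iECs, against 18.1, 20.9 and 23.2 CPM in lung ECs, and fell by 0.48 ± 0.121 (adjusted p = 0.00334). Rrm2 stood at 39.9, 42.5 and 31.5 CPM in lung iECs, against the lung EC values above, and fell by 0.50 ± 0.142 (adjusted p = 0.00873). Cdc6 had the largest called fall, at 8.06, 5.50 and 5.26 CPM in lung iECs, against 7.54, 9.46 and 10.4 CPM in lung ECs, by 0.54 ± 0.192. These values overlap, and the call was lost without any of 4 libraries (adjusted p up to 0.108). Mcm4 had the smallest, at 39.4, 35.3 and 31.1 CPM in lung iECs, against 43.1, 42.3 and 42.4 CPM in lung ECs, by 0.27 ± 0.0928 (adjusted p up to 0.117 without a library).

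**Figure D3:**
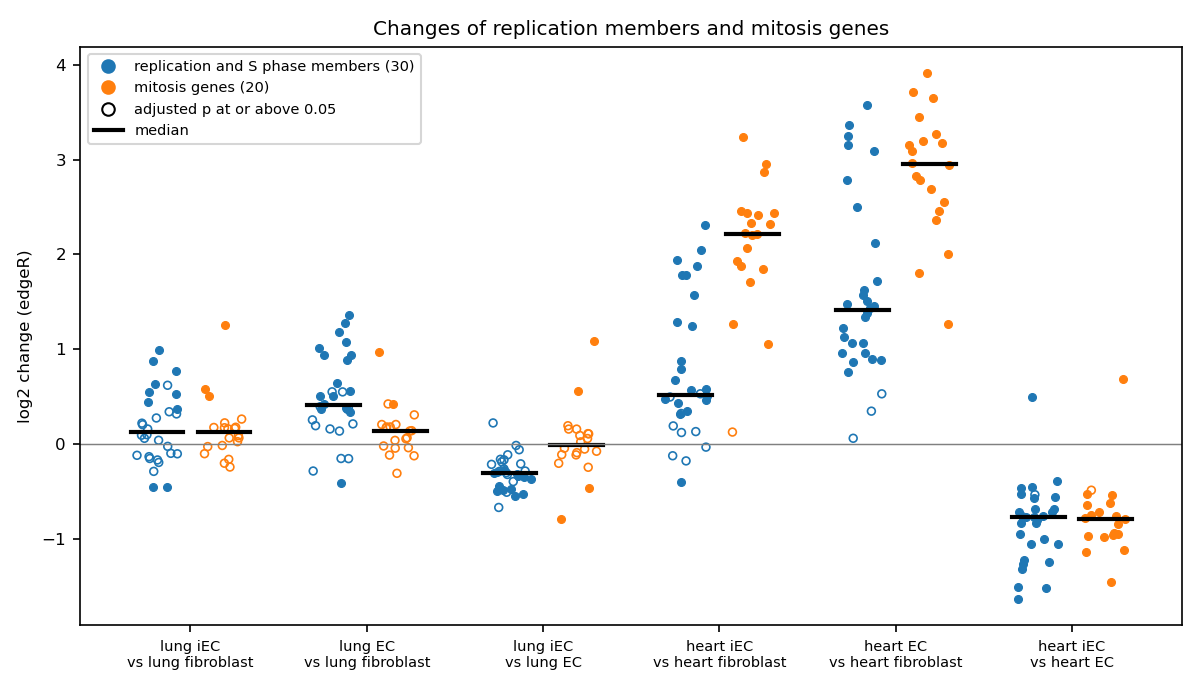
edgeR log2 change of each of the 30 members (blue) and of 20 mitosis genes (orange) in the 6 comparisons within an organ, lung on the left and heart on the right. Filled points passed an adjusted p of 0.05 and bars are medians. The lung medians lie between -0.31 and 0.41, and against heart fibroblasts the mitosis medians, 2.22 and 2.96, lie above those of the members, 0.52 and 1.41.

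Between organs the fibroblasts differed most. Lung fibroblasts had 28 members called higher than in heart fibroblasts and 0 lower (0 at an unadjusted p under 0.05 in edgeR and 0 called by DESeq2), where 24.6% of all genes tested were higher and 23.9% lower, with a median of 1.07 against 0.01. Cdc6 stood at 4.47, 4.41 and 4.15 CPM in lung fibroblasts, against the heart fibroblast values of under 1 CPM above, and was higher by 3.17 ± 0.268 (adjusted p = 1.83e-08). Uhrf1 was higher by 2.92 ± 0.130, Mcm5 by 2.77 ± 0.171 and Mcm10 by 2.75 ± 0.304. The smallest called change was that of Mcm3, at 26.5, 22.2 and 22.9 CPM in lung fibroblasts, against 17.2, 16.1 and 15.7 CPM in heart fibroblasts, by 0.54 ± 0.101 (adjusted p = 0.000214). E2f1 and Gins3 were not called, with changes of 0.06 ± 0.0950 and 0.19 ± 0.227. The call of Gins1 was lost without either of 2 libraries (adjusted p up to 0.143). With library totals alone 28 members were again higher, with 4974 of 7481 called genes, against 3658 of 7204 under TMM.

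Lung iECs had 25 members called higher than in heart iECs and 0 lower (0 at an unadjusted p under 0.05 in edgeR and 0 called by DESeq2), where 18.9% of all genes tested were called in each direction, with a median of 0.82 against -0.02. Cdc6, at the lung and heart iEC values given above, was higher by 1.65 ± 0.210 (adjusted p = 5.19e-06), Mcm10 by 1.52 ± 0.256 and Orc1 by 1.47 ± 0.266. Rrm1 had the smallest called change, at 104, 112 and 89.5 CPM in lung iECs, against 84.4, 85.0 and 81.2 CPM in heart iECs, by 0.29 ± 0.0937, and lost its call without any of 4 libraries (adjusted p up to 0.116). Rrm2 and Pola1 had negative changes that were not called, -0.19 ± 0.143 and -0.23 ± 0.135. E2f1, Gins1 and Gins3 were not called either. With library totals alone 25 members were again higher, with 3807 of 5594 called genes, against 2803 of 5607 under TMM.

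Lung ECs and heart ECs differed least by median among the 3 cell types. Of the members 10 were called higher in lung ECs and 2 lower, where 24.2% of all genes tested were higher and 23.7% lower, with a median of 0.28 against 0.02. Scaled by library totals alone the split was 19 higher and 1 lower, with the median over all genes at 0.16 and 5104 of 7716 called genes higher, against 3599 of 7123 under TMM. Without lung EC replicate 3 the count of higher members was 5, without heart EC replicate 3 it was 6, and without lung EC replicate 2 the count of lower members was 1. Ccne2 had the largest rise, at 11.9, 11.8 and 14.6 CPM in lung ECs, against 9.32, 6.42 and 7.496 CPM in heart ECs, by 0.72 ± 0.239, with its call lost without any of 3 libraries (adjusted p up to 0.0853). Chaf1a had the smallest, at the lung EC values above, against 17.0, 15.8 and 17.71 CPM in heart ECs, by 0.30 ± 0.121 (adjusted p up to 0.196 without a library).

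Both subunits of ribonucleotide reductase were lower in lung ECs than in heart ECs. Rrm2 stood at 53.3, 47.7 and 59.6 CPM in lung ECs, against 94.9, 75.8 and 88.9 CPM in heart ECs, without overlap, and fell by 0.69 ± 0.141 (adjusted p = 0.000555). Rrm1 stood at 79.6, 78.2 and 104 CPM in lung ECs, against 107, 109.5 and 112 CPM in heart ECs, and fell by 0.33 ± 0.0937, a call lost without lung EC replicate 2 (adjusted p = 0.0503) and under library totals alone. The summed macrophage markers of lung ECs stood above those of heart ECs, with the values given above, and their part in these differences was not tested.

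**Figure D4:**
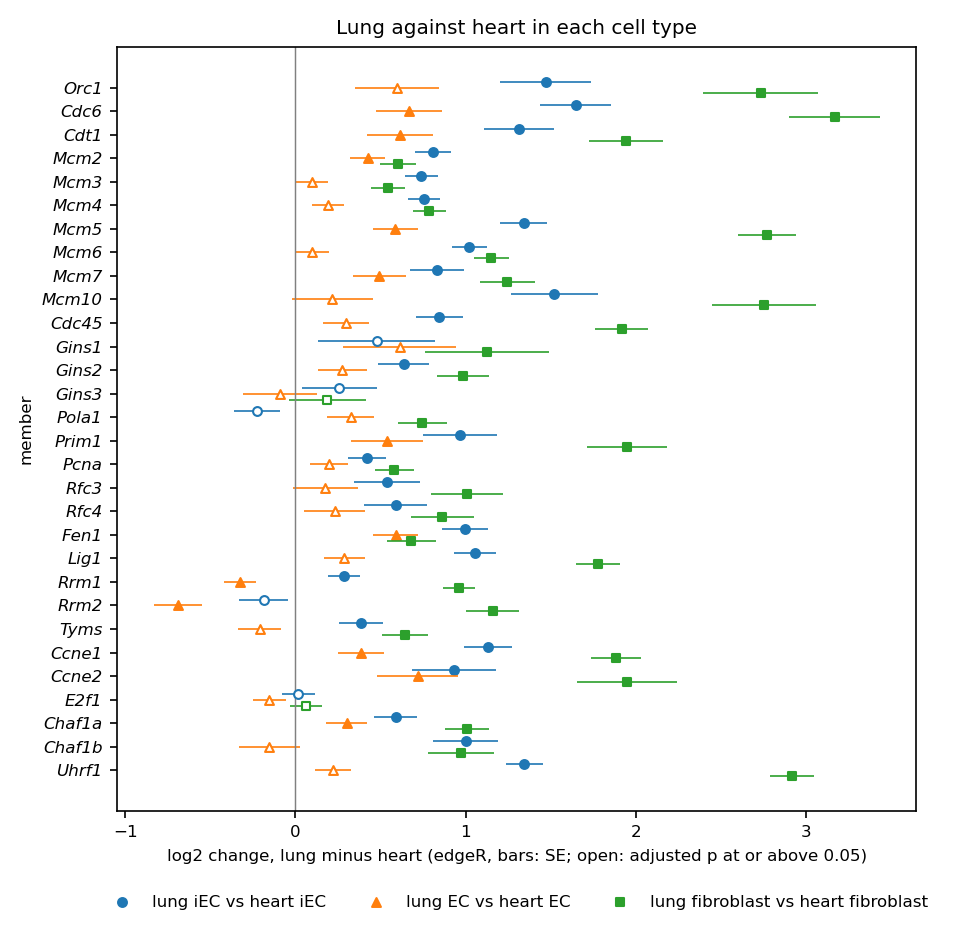
edgeR log2 change, lung minus heart, of each member in iECs (blue circles), ECs (orange triangles) and fibroblasts (green squares), with the SE as bars and open symbols where the adjusted p was at or above 0.05. Fibroblast points reach 3.17 for Cdc6, EC points lie between -0.69 and 0.72, and most iEC points lie in between.

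The organ differences were tested as interactions in edgeR. For the change of iECs over fibroblasts, 12 members had a lower change in the lung than in the heart and 0 a higher one, where 12.6% of all genes tested were called in each direction. Uhrf1 had the largest difference, -1.57 ± 0.171 (adjusted p = 2.36e-06), followed by Cdc6 with -1.52 ± 0.349 (adjusted p = 0.0033). For the change of ECs over fibroblasts, 22 members had a lower change in the lung and 0 a higher one, where 18.3% of all genes tested were lower and 16.2% higher. Uhrf1 led with -2.70 ± 0.168 (adjusted p = 1.19e-09) and Mcm10 followed with -2.54 ± 0.390 (adjusted p = 5.08e-05). In both, edgeR had 0 members with a higher change at an unadjusted p under 0.05 and DESeq2 called 0. Both use the heart fibroblasts, where most members were lowest. For the change of iECs over ECs, which does not use the fibroblasts, 13 members had a higher signed change in the lung and 1 a lower one. Of all genes tested 13.8% were higher and 12.2% lower. All 13 were called lower in heart iECs than in heart ECs, and 0 were called higher in lung iECs than in lung ECs. Mcm10 differed by 1.30 ± 0.350 (adjusted p = 0.00982), Chaf1b by 1.15 ± 0.261 (adjusted p = 0.00297) and Pola1 by -0.55 ± 0.192 (adjusted p = 0.0415). The call of Pola1 was lost without any of 8 of the 12 libraries.

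Within the MCM ring, whose 6 subunits stand in equal number, RNA per length was uneven. Levels were divided by the length of the GENCODE transcript with the longest coding sequence. Mcm5 was the lowest of the 6 in every group and Mcm6 the highest. In heart fibroblasts Mcm5 stood at 0.551 ± 0.077 CPM per kb, against 4.20 to 6.504 CPM per kb for the means of the other 5. In heart iECs it stood at 2.74 ± 0.303 against 5.69 to 7.43 CPM per kb, and in heart ECs at 5.70 ± 0.866 against 8.18 to 17.6. In lung iECs it stood at 6.93 ± 0.307 CPM per kb against 9.82 to 15.1, in lung ECs at 8.55 ± 1.26 against 11.5 to 18.8, and in lung fibroblasts at 3.77 ± 0.513 against 6.80 to 14.5 (SD, n = 3). Mcm5 and Mcm6, with their shared promoter letters shown above, thus differed in heart iECs over heart fibroblasts by 2.31 ± 0.172 and 0.19 ± 0.105. Which isoforms were present was not measured.

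**Figure D5:**
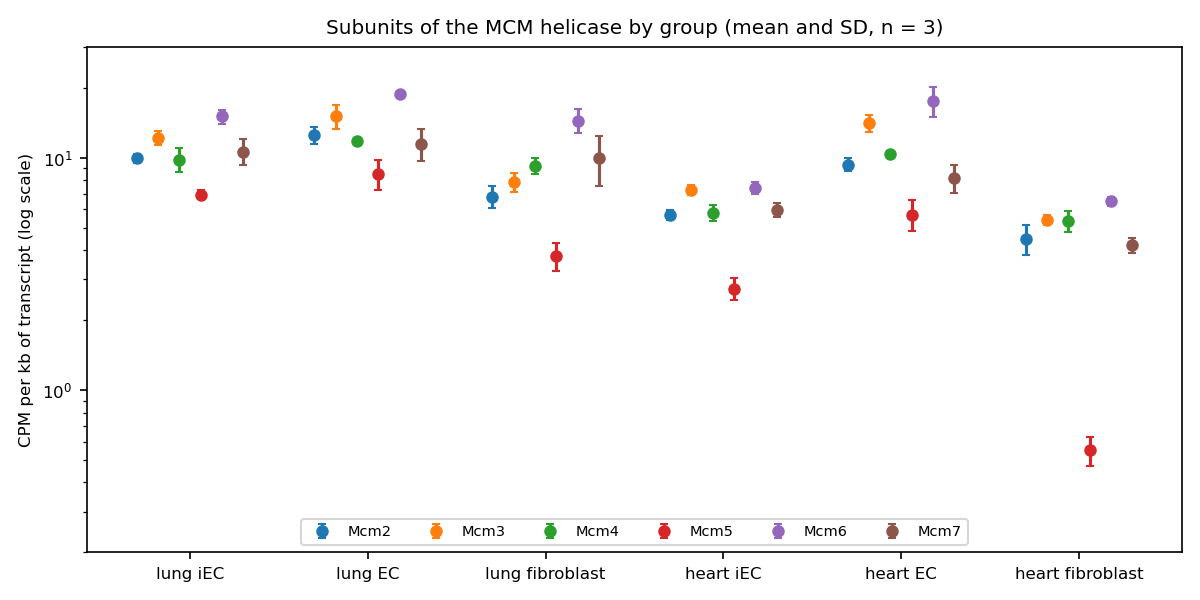
Mean CPM per kb of transcript of the 6 MCM subunits in each group (log axis, bars are SD, n = 3). Mcm5 (red) lies below the others in every group and reaches 0.551 in heart fibroblasts, where the other 5 lie between 4.20 and 6.504.

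Of 51 other replication genes, all tested, heart iECs had 21 higher and 3 lower than heart fibroblasts, with a median of 0.35, where 26.0% of all genes tested were higher and 24.6% lower. Pclaf, which codes for a PCNA-binding factor, was higher by 2.61 ± 0.210, and Clspn and the polymerase epsilon gene Pole by 1.34 ± 0.193 and 1.34 ± 0.154. Rnaseh2b, a subunit of the RNase that removes RNA from DNA, was lower by 1.40 ± 0.113. In heart ECs over heart fibroblasts 34 were higher and 2 lower (median 0.66), where 24.2% of all genes were higher and 23.3% lower, led by Pclaf with 3.75 ± 0.205 and the histone chaperone gene Asf1b with 3.30 ± 0.334. Between heart iECs and heart ECs 2 were higher and 26 lower (median -0.40), where 24.5% of all genes were higher and 24.4% lower, with Rnaseh2b at -1.31 ± 0.113 and Mcmbp, which binds MCM complexes, at 0.47 ± 0.0684. In lung iECs over lung fibroblasts 9 were higher and 9 lower (median -0.02), shares below the 25.9% and 24.7% of all genes, with the fork protection gene Timeless at 1.36 ± 0.203 and the polymerase delta subunit gene Pold4 at -0.77 ± 0.0880. In lung ECs over lung fibroblasts 16 were higher and 8 lower (median 0.13), with the higher share near the 29.3% of all genes and the lower one under their 28.7%. In lung iECs over lung ECs 3 were higher and 9 lower (median -0.09), both shares under the 22.2% and 23.0% of all genes. Scaled by library totals alone, heart iECs had 32 higher and 3 lower than heart fibroblasts (median 0.53), and heart ECs 35 and 0. In heart iECs over heart ECs the split was then 5 and 22. Against lung fibroblasts, lung iECs had 18 and 5 (median 0.15) and lung ECs 23 and 5. Of the 14864 genes tested, 8323, 7062, 7511, 7846 and 8764 were then called, in this order. Among those, 5772, 4630, 4321, 5296 and 5333 were higher. Lung fibroblasts had 37 of the 51 higher and 1 lower than heart fibroblasts, lung iECs 29 and 1 against heart iECs, and lung ECs 14 and 1 against heart ECs, where 24.6%, 18.9% and 24.2% of all genes were higher. Under library totals alone the EC split was 22 and 0, the iEC split 37 and 0 and the fibroblast split 43 and 1. Of the 14864 genes tested 5104, 3807 and 4974 were then higher, in this order.

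Among 22 E2F, pocket protein and G1 kinase genes, heart iECs had 12 higher and 3 lower than heart fibroblasts, with a median of 0.33, against 26.0% and 24.6% of all genes. Ccna2, the S phase cyclin A, was higher by 2.41 ± 0.165. Rb1, the founding pocket protein, was higher in iECs of both organs: by 2.05 ± 0.142 in heart iECs over heart fibroblasts, by 1.98 ± 0.142 over heart ECs, by 1.59 ± 0.141 in lung iECs over lung fibroblasts and by 1.22 ± 0.138 over lung ECs. Its mean level was 110 CPM in heart iECs, against 27.8 CPM in heart ECs and 26.5 CPM in heart fibroblasts. Cdc25a, the phosphatase that activates Cdk2, rose by 1.35 ± 0.104 in heart iECs and by 0.96 ± 0.101 in lung iECs over fibroblasts. The repressive factor gene E2f6 fell by 0.92 ± 0.0972 and 0.82 ± 0.0951 in the same 2 comparisons. Heart ECs had 16 of the 22 higher and 2 lower than heart fibroblasts (median 0.52), against 24.2% and 23.3% of all genes, with the cell cycle repressor genes E2f8 at 4.94 ± 0.491 and E2f7 at 3.45 ± 0.313. Against heart ECs, heart iECs had 5 higher and 10 lower (median -0.22), where 24.5% of all genes were higher and 24.4% lower. Ccnd1, the cyclin D1 gene, averaged 240 CPM in heart iECs, against 635 CPM in heart ECs, and fell by 1.41 ± 0.148. Against lung ECs, lung iECs had 4 higher and 5 lower (median -0.08), near the 22.2% and 23.0% of all genes. Lung iECs had 7 higher and 4 lower than lung fibroblasts (median 0.05), near the 25.9% and 24.7% of all genes. Lung ECs had 7 higher and 6 lower than heart ECs (median 0.19), near the 24.2% and 23.7% of all genes. Under library totals alone the EC split was 12 and 2 (median 0.34), where 5104 of 7716 called genes were higher.

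The 7 CDK inhibitor genes, whose products hold back the G1/S kinases, had calls both ways. In heart iECs over heart fibroblasts 1 was higher and 3 lower (median -0.01), and in heart ECs over heart fibroblasts 2 and 2 (median -0.04). Of all genes tested, 26.0% were higher and 24.6% lower in the former and 24.2% and 23.3% in the latter. In lung iECs over lung fibroblasts the split was 1 and 2 (median -0.27), against 25.9% and 24.7% of all genes. In lung ECs over lung fibroblasts it was 2 and 4 (median -1.35), against 29.3% and 28.7%. Calls both ways were thus common among all genes too. Scaled by library totals alone, the heart iEC split was 2 higher and 0 lower with a median of 0.17. The lower calls there, that of Cdkn1b among them, were thus lost. The heart EC split was 3 and 1 with a median of 0.07. Of all called genes 5772 of 8323 were then higher in heart iECs and 4630 of 7062 in heart ECs. Cdkn1b, which codes for p27, was lower than in fibroblasts by 0.38 ± 0.0973 in heart iECs, 1.23 ± 0.0997 in heart ECs, 0.83 ± 0.0984 in lung iECs and 1.62 ± 0.101 in lung ECs. Cdkn1a, which codes for p21, was higher by 0.29 ± 0.0726 in heart iECs and 0.48 ± 0.0727 in lung iECs. Against heart ECs, heart iECs had 1 of the 7 higher and 0 lower (median -0.06), where 24.5% of all genes were higher and 24.4% lower. Against lung ECs, lung iECs had 4 higher and 3 lower (median 0.66), where 22.2% and 23.0% of all genes were. Cdkn1b was higher than in ECs by 0.85 ± 0.0991 in heart iECs and by 0.78 ± 0.1001 in lung iECs.

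Mitosis genes had the same order of summed levels in the heart, with larger medians than the members against heart fibroblasts. Of 20, 19 were higher in heart iECs than in heart fibroblasts (median 2.22) and 20 in heart ECs (median 2.96), where 26.0% and 24.2% of all genes were higher. In both edgeR had 0 lower, also at an unadjusted p under 0.05. Against heart ECs, heart iECs had 1 higher and 18 lower (median -0.79), where 24.5% of all genes were higher and 24.4% lower. Their summed level was 239.5 ± 4.42 CPM in heart iECs, 383 ± 16.9 in heart ECs and 56.5 ± 2.99 in heart fibroblasts. Cdc20, an activator of the anaphase-promoting complex, was the exception, higher by 0.69 ± 0.128 in heart iECs than in heart ECs. In the lung 3 were higher in iECs and 2 in ECs than in fibroblasts, with 0 lower in either, also at an unadjusted p under 0.05, shares under the 25.9% and 29.3% of all genes that were higher. Under library totals alone 6 were higher in lung iECs and 5 in lung ECs, where 5296 and 5333 of the 14864 genes tested were higher. All 20 were higher in lung than in heart iECs, as in fibroblasts, where 18.9% and 24.6% of all genes were higher. In ECs 4 were higher, a share under the 24.2% of all genes. With library totals alone 8 were, where 5104 of the 14864 genes tested were higher.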

How the data were processed

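Per the labels' protocols, an Rneasy kit gave the RNA and a company prepared and sequenced the mRNA libraries. The authors' deposited table holds estimated counts per gene (expected counts), whole numbers with no scaling of totals. The submitters' processing notes name Salmon, DESeq2 and the build mm10 without versions, and how transcripts were summed to genes is not given in the sources used here. Symbols came from GENCODE M21, which named 35422 of 35727 IDs, and the 305 others held 0.0532% of counts. In the library with the lowest total, 1 count is worth 0.0563 CPM.

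The fits used edgeR 4.0.16 under R 4.3.3. Genes kept by filterByExpr on the 6 groups (14864, with 99.97% of counts) were scaled by TMM and fitted by robust quasi-likelihood over all 18 libraries with 1 coefficient per group (12 residual degrees of freedom, common biological coefficient of variation 0.135). Calls needed a p under 0.05 after Benjamini-Hochberg adjustment over all genes of a contrast, of which there were 12. The SE is the absolute log2 change over the square root of F. All printed adjusted p-values are edgeR's. Simulated data with known changes were used to test the fit.

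The members, the 4 pathway lists (100 genes, all tested), the 5 marker lists and the contrasts were chosen with earlier results of these data known. Values in every library are given for the called members of largest and smallest change in each contrast and for those called opposite to most. Pathway lists name up to 4 called genes per contrast by size of change, with a group mean of at least 5 CPM, and 1 opposite. Promoters came from RefSeq on GRCm38.p6. The alternatives run were a replicate block, RLE scaling, DESeq2 1.42.0, no filter beyond 1 count, fits of the compared groups alone, glmTreat against a log2 change of 1 and each library left out. Library totals alone was added after seeing the data.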

Additional observations from a re-analysis of the deposited data

Results flagged for a closer look

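Differences between organs, each tested as an edgeR interaction, mark these results for a second look. The change of iECs over fibroblasts was smaller in the lung than in the heart for 12 of 30 members. Of all genes tested 12.6% were called lower there. Uhrf1 (-1.57 on the log2 scale) and Cdc6 (-1.52) led these members. The change of ECs over fibroblasts was smaller in the lung for 22 members, led by Uhrf1 (-2.70) and Mcm10 (-2.54), where 18.3% of all genes were lower. The signed change of iECs over ECs was higher in the lung for 13 members, led by Mcm10 (1.30) and Chaf1b (1.15), where 13.8% of all genes were higher. All 13 were called lower in heart iECs than in heart ECs, and 0 were called higher in lung iECs than in lung ECs. The change was lower in the lung for 1 member, Pola1 (-0.55), a share under the 12.2% of all genes. Its call was lost without any of 8 libraries (adjusted p up to 0.116).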

How the results depend on the processing

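No called change of a member reversed under the alternatives run. The median of the CDK inhibitor list did under library totals alone, to 0.17 in heart iECs and 0.07 in heart ECs over heart fibroblasts, 0.01 in heart iECs over heart ECs and 0.02 in lung over heart fibroblasts, as did that of the other replication genes in lung iECs over lung fibroblasts (0.15, and 0.004 under RLE scaling) and of the mitosis genes in lung iECs over lung ECs (0.03). RLE scaling and DESeq2 each moved 1 member count by over 1.5 times, that of lung iECs lower than lung fibroblasts, to 1, as did no filter, the replicate block, the fit of compared groups alone and library totals alone. Without the filter, with the block and in the fit of compared groups alone, 0 members had a lower iEC over EC change in the lung, and in the last fit 8 were lower in lung iECs than in lung ECs. The labels do not say whether libraries with the same replicate number belong together. Correlations of same-numbered deviations ran from -0.398 to 0.117, lowest in lung iECs against lung ECs, and cannot settle this. The block moved no other member count by over 1.5 times.

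Scaling by library totals alone raised the median of all genes tested to 0.21 in heart iECs over heart fibroblasts, its largest shift. It gave 0 lower members there with a median of 0.70, a median of 1.52 in heart ECs over heart fibroblasts, -0.70 in heart iECs over heart ECs and 0.94 in lung over heart iECs. Lung iECs then had 15 members higher and 1 lower than lung fibroblasts, and lung ECs 19 higher and 1 lower than heart ECs, with a median of 0.43.

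Against a log2 change of 1 (glmTreat), heart iECs had 6 members higher and 0 lower than heart fibroblasts and 0 higher and 4 lower than heart ECs. Heart ECs had 16 higher than heart fibroblasts. Of the 14864 genes tested, 1876 were called in heart iECs over heart fibroblasts, 1010 of them higher. In heart iECs over heart ECs 1775 were called, 691 of them higher, and in heart ECs over heart fibroblasts 1175, 867 of them higher. In the lung 0 members were called either way in iECs over fibroblasts, 1 higher and 0 lower in ECs over fibroblasts, and 0 lower in iECs than in ECs. Of all genes 1806, 2412 and 1394 were called in these comparisons, of which 1109, 1428 and 696 were higher. Lung over heart, 11 members were higher in fibroblasts, 3 in iECs and 0 either way in ECs. Of all genes 1666, 1280 and 1641 were called there, of which 994, 883 and 900 were higher. Of the organ differences, 1 and 9 members were lower for iECs and ECs over fibroblasts and 0 either way for iECs over ECs. Of all genes 592, 1254 and 714 were called for these, of which 330, 572 and 415 were higher.

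With each library left out, members called higher ranged from 17 to 20 in heart iECs over heart fibroblasts, 26 to 28 in heart ECs over heart fibroblasts, 5 to 10 in lung iECs and 13 to 21 in lung ECs over lung fibroblasts, 0 to 1 in lung iECs over lung ECs and 5 to 10 in lung over heart ECs. Members called lower ranged from 24 to 27 in heart iECs against heart ECs (medians -0.81 to -0.76), 5 to 11 in lung iECs against lung ECs, 1 to 3 in lung iECs against lung fibroblasts and 1 to 2 in lung against heart ECs (medians 0.20 to 0.32). Lung over heart, higher members ranged from 27 to 28 in fibroblasts and 22 to 23 in iECs (medians 0.75 to 0.86). For the organ differences, the ranges were 0 to 1 higher and 9 to 14 lower for iECs over fibroblasts, 20 to 24 lower for ECs over fibroblasts, and 11 to 14 higher and 0 to 1 lower for iECs over ECs. The causes were not tested.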
